A study of Homo sapiens with 12 samples.

Results

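The levels of 8 human miRNA strands were followed across 6 forms of DICER: hsa-miR-185-5p, hsa-miR-744-5p, hsa-miR-1307-5p, hsa-miR-1307-3p, hsa-miR-101-3p, hsa-miR-101-5p, hsa-miR-421 and hsa-miR-1180-3p, named below without the species prefix. They were matched by name in the deposited counts, where they make up 8 of 1346 miRNA entries, and all 8 passed the filter on low counts that left 374 entries for testing. The list was drawn up from these same libraries as miRNAs that were low in several DICER mutants, with no numerical cut-off. Levels against wild type are therefore given as a description, with no test. The description held unevenly. Both libraries of a mutant lay below both wild-type libraries in 5 of 5 mutants for miR-185-5p, miR-744-5p, miR-1307-5p and miR-101-3p. The same held in 3 mutants for miR-1180-3p, 2 for miR-421, 1 for miR-1307-3p and 0 for miR-101-5p, so on this scale, relative to the other miRNAs, the data go against the description for the last of these. Set by spike-ins the count was 5 mutants for miR-421, 4 for miR-1307-3p, 3 for miR-1180-3p and 2 for miR-101-5p, and it stayed at 5 for the other 4 members. On that scale 42.5% to 73.3% of all tested entries, depending on the mutant, lay below both wild-type libraries. The higher counts are therefore not read as a result about the members.

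Small RNA was sequenced from HCT116, a human colorectal carcinoma cell line, by AQ-seq, a library method made to lower the ligation bias of small-RNA sequencing, starting from 100 µg of total RNA. Cells carried a rescue DICER of one of 6 kinds, with 2 libraries each: E5, A5, ΔPAZ helix, R821E, R821A and wild type (WT). In R821E and R821A the arginine in the name is exchanged for glutamate or for alanine, and the name ΔPAZ helix stands for a DICER without a PAZ helix. The meaning of E5 and A5, the DICER that the cells had before rescue, and whether each rescue is 1 clone or a pool were not given in the sources used here. It is also unstated whether the libraries of a group are separate cultures, so the p-values therefore cover the spread between these libraries only, which may be technical.

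DICER cuts the loop off a precursor hairpin that Drosha has released from a longer transcript, which leaves a duplex of a 5p and a 3p strand. One strand of the duplex is kept by an Argonaute protein and guides it to messenger RNAs through the seed, bases near its 5′ end, while the other strand is mostly lost. The level of a mature strand thus depends on transcription, on both cuts and on strand choice, and counts of mature strands do not tell these apart.

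The mature strands are shown first because all 8 differ in their seed, bases 2 to 8, given in capitals and written 5′ to 3′ from RefSeq on GRCh38.p14. 
miR-185-5p: uGGAGAGAaaggcaguuccuga
miR-744-5p: uGCGGGGCuagggcuaacagca
miR-1307-5p: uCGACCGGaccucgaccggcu
miR-1307-3p: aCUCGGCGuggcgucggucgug
miR-101-3p: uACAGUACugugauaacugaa
miR-101-5p: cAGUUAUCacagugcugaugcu
miR-421: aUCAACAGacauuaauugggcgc
miR-1180-3p: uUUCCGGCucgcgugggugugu
No other tested entry with a RefSeq sequence shared one of these seeds. Of the strands, 5 begin with U, 2 with A and 1 with C, while 38.7% of the 323 other tested entries with a sequence begin with U. Base composition ran from 33.3% G and C in miR-101-3p to 72.7% in miR-1307-3p, against a median of 47.6% in the other entries.

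The members come from separate loci, except for both strands of miR-1307 and, in part, both strands of miR-101. By GENCODE release 29, miR-185-5p (chr22:20033153-20033174, plus strand) lies in an intron of TANGO2, miR-744-5p (chr17:12081909-12081930, plus strand) in an intron of MAP2K4, which encodes a stress kinase, and miR-1180-3p (chr17:19344513-19344534, minus strand) in an intron of B9D1, a gene of the primary cilium. Both miR-1307-5p (chr10:103394341-103394361, minus strand) and miR-1307-3p (chr10:103394301-103394322, minus strand) lie in an untranslated exon of ATP5MD, which encodes a subunit of ATP synthase. miR-421 (chrX:74218392-74218414, minus strand) lies in an intron of the noncoding RNA FTX. For miR-101-3p the RefSeq entry is at chr9:4850345-4850365 on the plus strand, in an intron of RCL1, and miR-101-5p is at chr1:65058477-65058498 on the minus strand with no overlapping gene.

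A pair of features of the precursors bears on how the counts can be read, and the RefSeq hairpins that show them are given with annotated mature strands in capitals. 
MIR101-1: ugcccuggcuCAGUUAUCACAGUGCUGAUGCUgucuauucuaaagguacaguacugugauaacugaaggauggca
MIR101-2: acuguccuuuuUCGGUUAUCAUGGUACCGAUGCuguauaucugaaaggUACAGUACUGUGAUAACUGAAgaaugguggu
MIR744: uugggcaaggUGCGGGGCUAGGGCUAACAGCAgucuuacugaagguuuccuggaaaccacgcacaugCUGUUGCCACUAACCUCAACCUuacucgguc
The sequence of miR-101-3p is found at bases 47 to 67 of MIR101-1 (chr1:65058434-65058508, minus strand) and again at bases 49 to 69 of MIR101-2 (chr9:4850297-4850375, plus strand), so its counts can hold strands from both hairpins. miR-101-5p is found in MIR101-1 only. MIR744 (chr17:12081899-12081996, plus strand) leaves 35 bases between its annotated strands, against a median of 16 in 183 other hairpins with both strands annotated, of which 3 had at least as many. From the first base of the 5p strand to the last of the 3p strand MIR744 spans 79 bases, against 57 in MIR185, 56 in MIR1180, 58 in MIR101-2 and 61 in MIR1307, and a median of 60.0 in the other hairpins.

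The libraries held 144067 to 255296 miRNA counts, at which 3 counts equal 11.8 to 20.8 CPM (counts scaled to the library's miRNA total). This limit covers counting error only, since reads with no molecular identifier can be copies of 1 molecule. Levels below are CPM scaled by the trimmed mean of M values (TMM), which are relative to the other miRNAs, unless they are called spike-in values. Spike-in sequences were counted in each library, and miRNA counts per spike-in count were 13.4 to 15.3 in R821E, 16.5 to 21.5 in the other 4 mutants and 22.4 to 25.9 in WT. The way spike-ins were added was not given in the sources used here. Setting libraries by their spike-ins moves the median log2 fold change of all 374 entries against WT to -0.56 in E5, -0.46 in A5, -0.45 with ΔPAZ helix, -1.38 in R821E and -0.35 in R821A, from values between -0.10 and 0.03 on the TMM scale. miRNAs known from colorectal epithelium were detected in all libraries, 9 of 9. Their sum is mostly miR-21-5p, at a mean of 466300 CPM, while 7 of the 9 averaged 27.9 to 1072 CPM. They summed to 704100 to 844400 CPM in R821E, 380000 to 502800 in the other mutants and 374900 to 437800 in WT. These sums are on the TMM scale and are not shares of a library's miRNA counts. Markers of other cells summed to 1650 to 2346 CPM over 16 entries, of which 8 were also detected in all libraries and 0 were absent from all. Among them miR-9-5p averaged 726 CPM and miR-145-5p 451, above miR-429 at 218 but below miR-200b-3p at 1072. Apart from miR-21-5p and miR-31-5p the lists thus overlapped in level, and they do not by themselves tell the cell type. Whether the summed marker levels bear on the members was not tested.

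Together the members took 0.448% and 0.458% of miRNA counts in E5, 0.449% and 0.494% in A5, 0.446% and 0.490% with ΔPAZ helix, 0.177% and 0.196% in R821E, 0.541% and 0.444% in R821A, and 0.686% and 0.666% in WT. The R821E libraries had the smallest shares and the WT libraries the largest. Both libraries lay below both WT libraries for 6 of 8 members in E5, where 23.8% of all tested entries did so, for 5 in A5 (19.5% of entries), 5 with ΔPAZ helix (20.9%), 6 in R821E (39.8%) and 4 in R821A (17.6%). The 5 mutants share the same WT libraries and the members were chosen on this contrast, so nothing is read from these counts. The median log2 fold change of the members against WT was -0.91 in E5, -0.56 in A5, -0.50 with ΔPAZ helix, -1.37 in R821E and -0.30 in R821A.

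**Figure D1:**
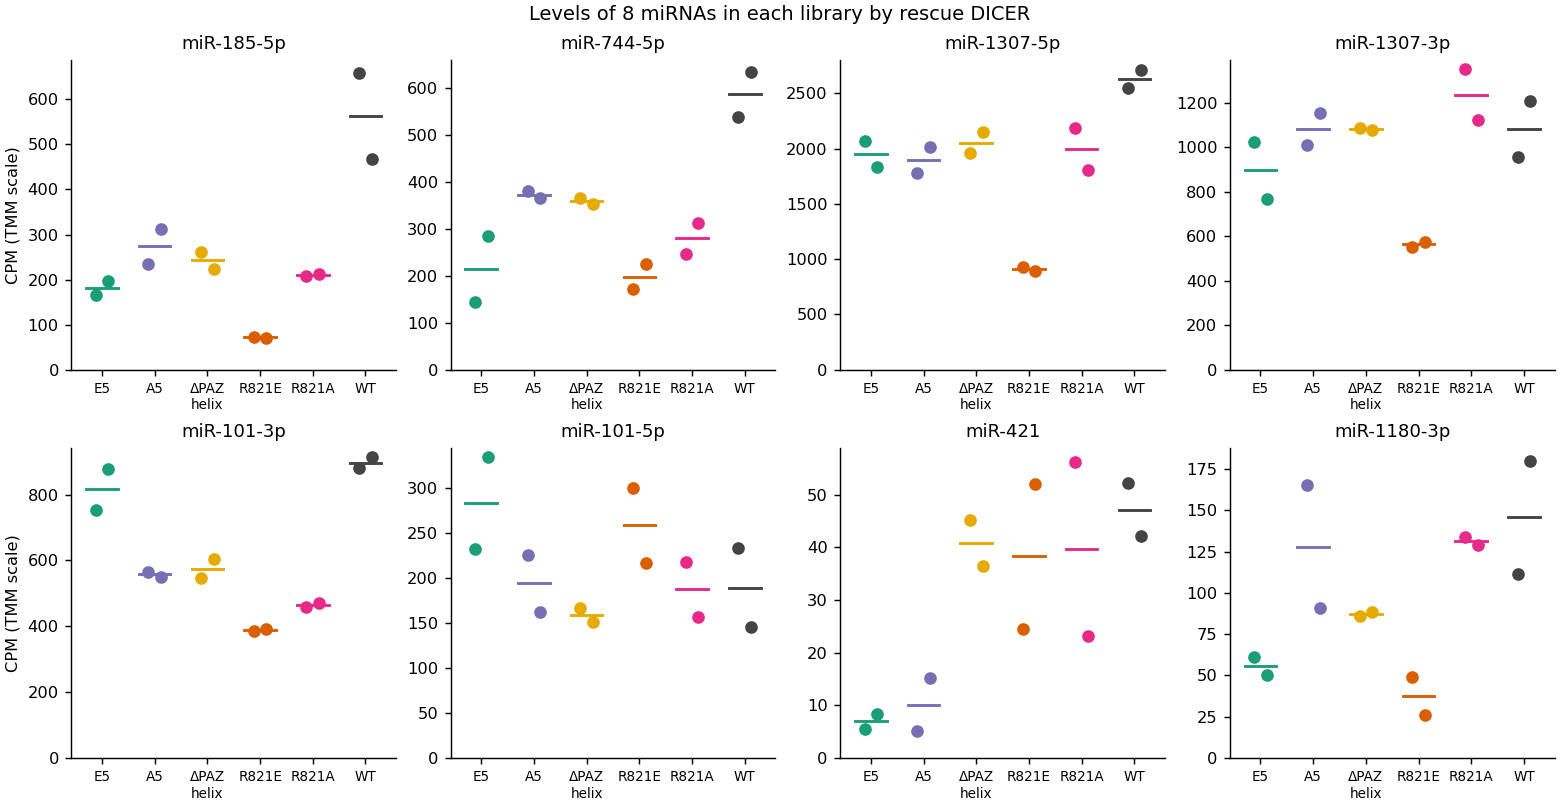
Level of each miRNA in each of the 12 libraries in CPM on the TMM scale (vertical axes start at 0), by rescue DICER, with a bar at the mean of 2 libraries. R821E libraries are lowest for miR-185-5p, with 73.6 and 69.5 CPM, and miR-101-5p libraries of all mutants overlap those of WT.

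miR-185-5p, a strand from the chromosome segment lost in DiGeorge syndrome and studied as a repressor of the DNA methyltransferase DNMT1, had the most negative fold change of the members with ΔPAZ helix, R821E and R821A. It had 166 and 197 CPM in E5, 236 and 313 in A5, 262 and 224 with ΔPAZ helix, 73.6 and 69.5 in R821E, 207.5 and 212 in R821A, and 658 and 467 in WT. Every mutant library lay below both WT libraries, and the R821E libraries lay below all others. The log2 fold change against WT was -1.62 ± 0.257 in E5 (SE), -1.03 ± 0.244 in A5, -1.21 ± 0.249 with ΔPAZ helix, -2.96 ± 0.336 in R821E and -1.42 ± 0.248 in R821A. Counted from the most negative of 374 entries, these values held places 8, 9, 4, 2 and 7. Members were chosen for low values in the mutants, which favours such places, so nothing is read from them. The R821E level rests on 20 counts in 2 libraries, against 311 in WT.

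miR-744-5p, reported to repress TGFB1, was also below WT in every mutant library. Its level was 144 and 285 CPM in E5, 381 and 366 in A5, 366 and 354 with ΔPAZ helix, 172 and 226 in R821E, 246 and 313.5 in R821A, and 539.5 and 636 in WT. The E5 libraries differed from each other by more than those of any other mutant and overlapped both R821E and R821A, while A5 and ΔPAZ helix lay close together between these and WT. Against WT the log2 fold change was -1.43 ± 0.283 in E5 (SE), -0.65 ± 0.268 in A5, -0.70 ± 0.271 with ΔPAZ helix, -1.58 ± 0.304 in R821E and -1.07 ± 0.272 in R821A.

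miR-1307-5p had the most counts of the members. It reached 2071 and 1835 CPM in E5, 1780 and 2016 in A5, 1960 and 2151 with ΔPAZ helix, 926 and 894 in R821E, 2191 and 1807 in R821A, and 2551 and 2711 in WT. E5, A5, ΔPAZ helix and R821A overlapped one another in a band just below WT, and R821E stood apart below that band. The log2 fold change against WT was -0.43 in E5, -0.47 in A5, -0.36 with ΔPAZ helix and -0.39 in R821A, each with an SE of 0.150 to 0.151, and it was -1.53 ± 0.157 in R821E. The opposite strand of the same hairpin, miR-1307-3p, had 1025 and 767 CPM in E5, 1008 and 1151 in A5, 1088 and 1078 with ΔPAZ helix, 552 and 573 in R821E, 1351 and 1120 in R821A, and 957 and 1206 in WT. Only R821E lay apart from WT for this strand, with a log2 fold change of -0.94 ± 0.207 (SE). The other 4 mutants had values between -0.28 and 0.19 on the TMM scale, which became -0.87 in E5, -0.46 in A5, -0.45 with ΔPAZ helix and -0.15 in R821A when libraries were set by spike-ins.

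miR-101-3p, known as a repressor of the histone methyltransferase EZH2, had another order of mutants. It stood at 753 and 880 CPM in E5, 566.5 and 551 in A5, 546 and 604 with ΔPAZ helix, 386 and 391 in R821E, 457 and 470 in R821A, and 880.5 and 915 in WT. E5 nearly met WT, A5 and ΔPAZ helix overlapped each other, and R821A and R821E followed below without overlap. The log2 fold change against WT was -0.13 ± 0.179 in E5 (SE), -0.68 ± 0.181 in A5, -0.64 ± 0.182 with ΔPAZ helix, -1.21 ± 0.193 in R821E and -0.95 ± 0.182 in R821A. Without E5 replicate 1 the E5 value was 0.01, so its direction rests on that library.

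miR-101-5p did not follow the 3p strand. Its libraries had 233 and 335 CPM in E5, 226 and 162 in A5, 167 and 151 with ΔPAZ helix, 300.4 and 217 in R821E, 218 and 157 in R821A, and 233 and 145.5 in WT. In the order of means, ΔPAZ helix, R821A, WT, A5, R821E and E5, each neighbour overlapped the next. Log2 fold changes against WT were 0.59 ± 0.312 in E5 (SE) and 0.46 ± 0.327 in R821E. On the spike-in scale they were 0.00 in E5 and -0.82 in R821E, so the direction in R821E turns with the scaling.

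miR-421, reported to repress the DNA damage kinase ATM, was the rarest member and is given as counts. E5 libraries held 1 and 2 counts, A5 libraries 1 and 4, ΔPAZ helix libraries 10 and 7, R821E libraries 4 and 6, R821A libraries 16 and 5, and WT libraries 15 and 11. E5 and A5 were the low groups, while the other 3 mutants each had a library within or above the WT range on the CPM scale. Scaled to library size, the summed counts of 3 in E5 and 26 in WT gave a ratio of 0.151 (exact 95% interval 0.0292 to 0.493, counting error only). For A5, with 5 counts, the ratio to WT was 0.227 (0.0681 to 0.601). In both mutants miR-421 had the most negative fitted fold change of all 374 entries, a rank that rests on 1 to 4 counts per library. The choice of members for low values favours such a rank, so nothing is read from it. Set by spike-ins, both libraries of all 5 mutants lay below both WT libraries, with a log2 fold change of -1.64 ± 0.575 in R821E (SE). On that scale 42.5% of all tested entries did so in R821A, 54% with ΔPAZ helix, 56.7% in A5, 58.3% in E5 and 73.3% in R821E.

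miR-1180-3p had 11 and 12 counts in E5, 33 and 24 in A5, 19 and 17 with ΔPAZ helix, 8 and 3 in R821E, 38 and 28 in R821A, and 32 and 47 in WT. Its mean level was 55.6 ± 7.54 CPM in E5 (SD, n = 2), 128 ± 52.9 in A5, 87.2 ± 1.94 with ΔPAZ helix, 37.6 ± 16.3 in R821E, 131 ± 3.25 in R821A and 146 ± 48.5 in WT. R821E, E5 and ΔPAZ helix lay below WT in that order without overlapping, and A5, R821A and WT overlapped. The summed count in R821E was 0.274 of that in WT after scaling (exact 95% interval 0.132 to 0.518, counting error only).

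**Figure D2:**
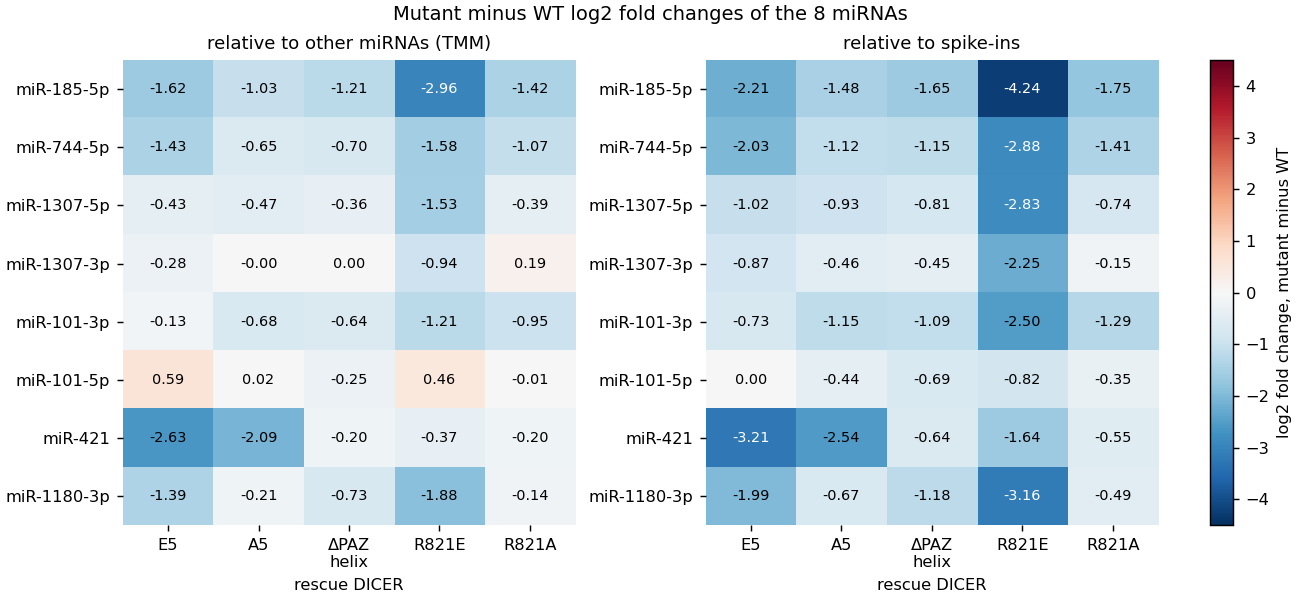
Log2 fold change of each miRNA (rows) in each mutant against WT (columns), on the TMM scale at left and by spike-ins at right, from the fit over 374 entries. miR-185-5p in R821E is -2.96 on the TMM scale and -4.24 by spike-ins, while miR-101-5p is at or above 0 in E5 on both.

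Direct comparisons between mutants leave the WT libraries out of the difference, although the mutant libraries also served to choose the members. The counts of called members are therefore a description, and no excess over the share of all entries is read from them. Glutamate in R821E and alanine in R821A take the place of the same arginine. R821E had lower levels than R821A of 4 of 8 members at an adjusted p under 0.05 (edgeR's quasi-likelihood test over 374 entries with Benjamini-Hochberg adjustment), where 19.5% of all tested entries were called lower. miR-185-5p averaged 71.5 ± 2.91 CPM in R821E and 210 ± 3.19 in R821A (SD, n = 2 each), a log2 difference of -1.54 ± 0.348 (SE; edgeR adjusted p = 0.00311). Both strands of the miR-1307 hairpin fell together, miR-1307-5p by 1.14 ± 0.158 on the log2 scale (edgeR adjusted p = 2.43e-04) and miR-1307-3p by 1.14 ± 0.207 (edgeR adjusted p = 0.00118). miR-1180-3p fell by 1.73 ± 0.513 on the log2 scale (edgeR adjusted p = 0.0127), and without R821E replicate 2 the difference was -1.35 (adjusted p = 0.0935), the highest of the alternatives, whose adjusted p began at 3.57e-04.

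The remaining 4 members were not called between R821E and R821A. For miR-744-5p the log2 difference was -0.50 with a 95% interval of -1.18 to 0.17, for miR-101-3p -0.26 (-0.68 to 0.17), for miR-101-5p 0.47 (-0.24 to 1.18) and for miR-421 -0.17 (-1.48 to 1.13). These intervals do not show that the levels were alike. Set by spike-ins, 6 members were called lower where 48.9% of all entries were, now with miR-744-5p at -1.47 (edgeR adjusted p = 0.00200) and miR-101-3p at -1.22 (edgeR adjusted p = 1.88e-04). Over all alternatives the adjusted p reached 0.630 for miR-744-5p and 0.589 for miR-101-3p. On that scale miR-101-5p was at -0.47.

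E5 against A5 gave 0 calls among the 374 entries by edgeR, with 37 entries at an unadjusted p under 0.05, and 0 by DESeq2 or limma-voom. Among those 37 were miR-185-5p, with a log2 difference of -0.60 ± 0.268 (SE), miR-744-5p with -0.77 ± 0.291, miR-1180-3p with -1.18 ± 0.427 and miR-101-3p with 0.55 ± 0.184, at edgeR adjusted p-values of 0.450 to 0.471. The E5 libraries lay below both A5 libraries for the first 3 of these, where 19.8% of all entries did so, and above both for miR-101-3p. None of these differences passed the correction. For miR-1307-5p the interval of the difference was narrow, -0.29 to 0.37 around 0.04 on the log2 scale.

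R821E against E5 set glutamate at the named arginine beside the mutant whose label holds an E. R821E had lower levels of 4 members, where 13.6% of all entries were called lower. These libraries, too, served to choose the members. miR-101-3p, close to WT in E5, averaged 388.5 ± 3.16 CPM in R821E and 816 ± 89.4 in E5 (SD, n = 2 each), a log2 difference of -1.07 ± 0.195 (SE; edgeR adjusted p = 0.00252). miR-1307-5p fell by 1.10 ± 0.159 on the log2 scale (edgeR adjusted p = 8.26e-04) and miR-185-5p by 1.34 ± 0.354 (edgeR adjusted p = 0.0110). miR-1307-3p fell by 0.67 ± 0.209 (edgeR adjusted p = 0.0282), a call lost with DESeq2 (adjusted p = 0.0519) and with limma-voom (adjusted p = 0.0528), within a range of 2.92e-04 to 0.254 over all alternatives. Without R821E replicate 1 or 2, the number of called members was 2, where 48 or 56 of all entries were called in either direction against 112 with every library, and the adjusted p of miR-185-5p was 0.0839 or 0.0757. It was 0.0838 without E5 replicate 2, where 40 entries were called, and 3.97e-04 by spike-ins. miR-421 stood the other way, with 10 summed counts in R821E and 3 in E5, a ratio of 5.02 (exact 95% interval 1.29 to 28.4, counting error only), which was not called by edgeR (adjusted p = 0.0556) and was called by limma-voom (adjusted p = 0.0362).

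**Figure D3:**
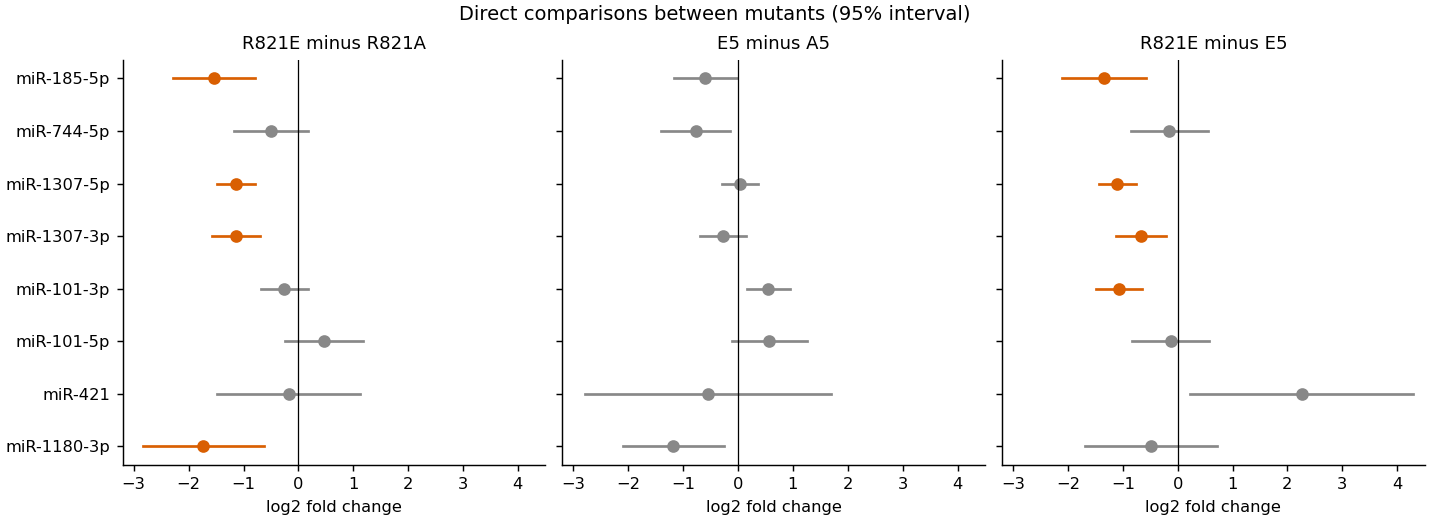
Log2 fold change between mutants for each miRNA with its 95% interval, R821E minus R821A, E5 minus A5 and R821E minus E5, where points in orange passed an adjusted p of 0.05. The 4 called members in the first and last panels all lie below 0, and no interval is coloured in the middle panel.

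Asked of all 5 mutants at once, 6 of 8 members varied among them (edgeR's quasi-likelihood F test, adjusted p under 0.05), where 28.1% of all entries did. The mutant libraries also served to choose the members, so no excess over that share is read from the count. miR-1307-5p had the smallest adjusted p, 0.00105, and miR-421 the largest among those called, 0.0466. miR-744-5p (adjusted p = 0.0779) and miR-101-5p (adjusted p = 0.201) were not called. The count was 1 without R821E replicate 1 and 1 without R821E replicate 2, and calls over all entries fell with it, to 17 and 34 against 105 with every library. Without any other library 4 to 6 members were called.

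Strand ratios within a hairpin do not depend on how libraries are scaled. For miR-1307 the log2 ratio of 5p to 3p was 1.01 and 1.26 in E5, 0.82 and 0.81 in A5, 0.85 and 0.99 with ΔPAZ helix, 0.74 and 0.64 in R821E, 0.70 and 0.69 in R821A, and 1.41 and 1.17 in WT. All A5, ΔPAZ helix, R821E and R821A libraries lay below both WT libraries, while E5 overlapped WT. Ratios against WT are a description only, since the members were chosen on that contrast. How many other hairpins lay apart from WT in this way was not counted, so nothing is read from it. For miR-101 it was -1.68 and -1.39 in E5, -1.32 and -1.75 in A5, -1.70 and -1.98 with ΔPAZ helix, -0.36 and -0.84 in R821E, -1.06 and -1.57 in R821A, and -1.91 and -2.64 in WT. The 3p strand was the more frequent in every library, least so in R821E, with 49 and 25 counts of 5p beside 63 and 45 of 3p. Because miR-101-3p can come from both MIR101 hairpins, this ratio is not that of a single precursor.

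Between mutants none of 6 ratio comparisons of these hairpins passed (limma over 69 hairpins, Benjamini-Hochberg adjustment), while 39.1% of the 69 hairpins were called between R821E and R821A, 0 between E5 and A5, and 21.7% between R821E and E5. The miR-101 ratio was 0.94 ± 0.349 higher on the log2 scale in R821E than in E5 (SE; limma adjusted p = 0.0686) and 0.72 ± 0.349 higher than in R821A (limma adjusted p = 0.134). For miR-1307 R821E and R821A differed by 0.00 ± 0.243 (limma adjusted p = 0.993). The strands of miR-744 passed the minimum of mean counts only at 10, a setting chosen after seeing the data. With it, R821E had a log2 ratio of 0.34 and 1.64, R821A 2.39 and 2.57, a difference of -1.49 ± 0.513 (SE; limma adjusted p = 0.0503 over 87 hairpins). In summed counts, miR-744-5p had 54 and miR-744-3p 30 in R821E, against 138 and 24 in R821A and 321 and 43 in WT.

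**Figure D4:**
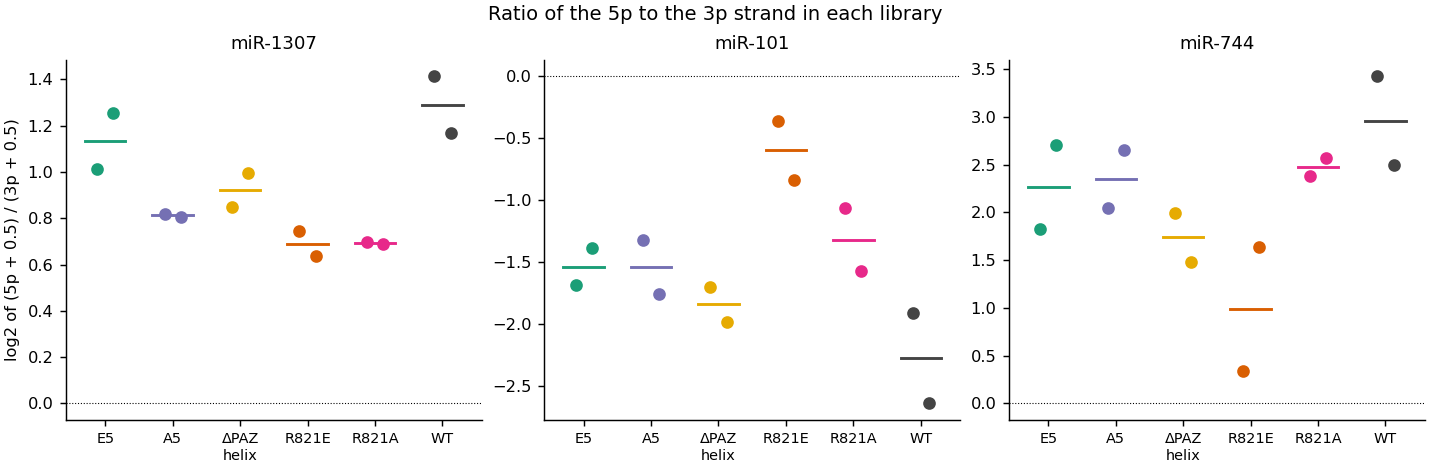
Log2 ratio of 5p to 3p counts, each with 0.5 added, in every library for miR-1307, miR-101 and miR-744, with a bar at the mean of 2 libraries. R821E has the highest miR-101 ratios, -0.36 and -0.84, and WT the lowest mean, while for miR-744 R821E spreads from 0.34 to 1.64.

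Entries related to the members by hairpin or locus were not used to choose them, so they were tested against WT. They were named with earlier results of these data known and share hairpins or loci with the members, so these tests are not independent of that choice. Of these, 10 were detected and 5 passed the filter: miR-744-3p, the opposite strand of miR-744-5p, and miR-374b-5p, miR-374a-5p, miR-374a-3p and miR-545-5p, whose hairpins neighbour that of miR-421. Of the 25 pairs of entry and mutant, 2 were called on the TMM scale, both in R821E, where 24.1% of all entries were called lower and 23.8% higher. miR-374b-5p averaged 204 ± 92.5 CPM in R821E and 482 ± 27.4 in WT (SD, n = 2 each), a log2 fold change of -1.20 ± 0.290 (SE; edgeR adjusted p = 0.00422) that was -0.76 without R821E replicate 2 (adjusted p = 0.0820). In the other 4 mutants its adjusted p was above 0.05, and nearest in R821A, at -1.02 ± 0.266 (edgeR adjusted p = 0.0551). That difference was called with total counts (adjusted p = 0.0346), by spike-ins (0.0125), with no filter (0.0320), with DESeq2 (0.0459) and with limma-voom (0.0320), and its adjusted p reached 0.510 over all alternatives. miR-374a-5p went the other way in R821E, by 0.76 ± 0.155 on the log2 scale (edgeR adjusted p = 0.00162), but by spike-ins it was lower, at -0.55 (adjusted p = 0.0236), and with total counts it was not called (adjusted p = 0.224). R821E was also called higher than R821A for miR-374a-5p (0.77 ± 0.155, edgeR adjusted p = 0.00215) and miR-545-5p (1.24 ± 0.360, edgeR adjusted p = 0.0154), where 21.9% of all entries were. Against E5 it was called higher for miR-374a-5p (0.61 ± 0.155, edgeR adjusted p = 0.0109), where 16.3% were. None of these calls between mutants was kept by spike-ins or with total counts. In E5 and A5, where miR-421 had 1 to 4 counts per library, miR-374b-5p had 312 ± 26.4 and 449 ± 32.3 CPM, with log2 fold changes of -0.62 (edgeR adjusted p = 0.182) and -0.10 (edgeR adjusted p = 0.961).

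**Figure D5:**
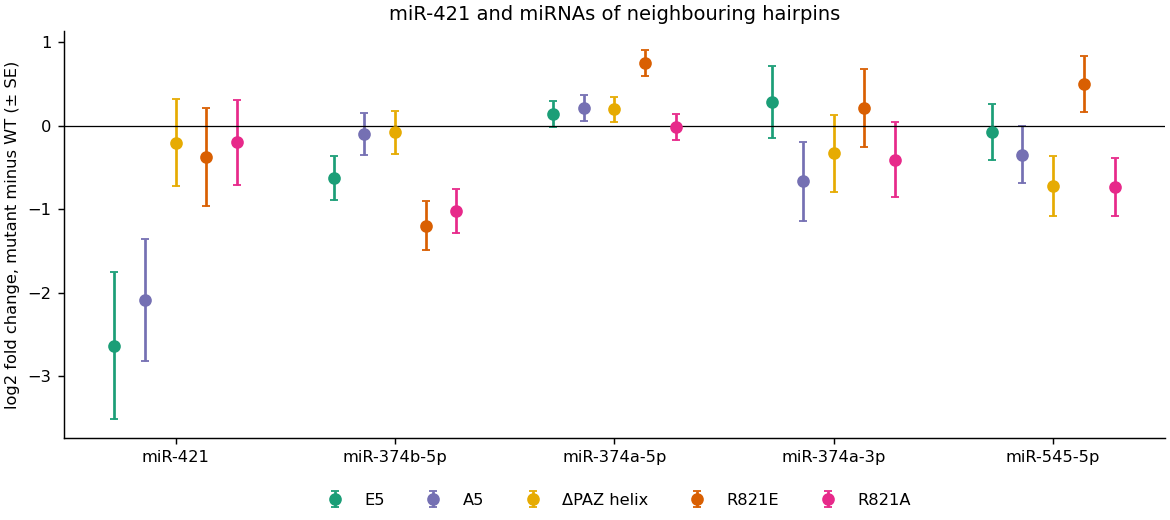
Log2 fold change of each mutant against WT on the TMM scale, with its SE, for miR-421 and 4 miRNAs from neighbouring hairpins. miR-421 lies at -2.63 in E5 and -2.09 in A5, while miR-374b-5p lies lowest in R821E, at -1.20, and in R821A.

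The other related entries were too rare to test. miR-185-3p had 7 summed counts in E5, 17 in A5, 6 with ΔPAZ helix, 0 in R821E, 13 in R821A and 14 in WT. A limit of 3 counts for a 0 equals 18.4 and 26.05 CPM in the R821E libraries on the TMM scale, where WT averaged 25.9 ± 12.1 (SD, n = 2). The ratio of summed counts in R821E to those in WT had an exact 95% upper bound of 0.594, for counting error only. miR-185-5p was thus read in each library at 8 or more counts, and its opposite strand in no R821E library. miR-1180-5p had 0 to 6 counts per group. Of the neighbours of miR-421, miR-374b-3p had 7 counts in E5, 8 in A5, 6 with ΔPAZ helix, 9 in R821E, 0 in R821A and 17 in WT, where the libraries averaged 32.0 ± 30.5 CPM (SD, n = 2). Its ratio of R821A to WT had an exact 95% upper bound of 0.265, for counting error only. miR-374c-5p had 0 to 12 counts per group, with the 12 in WT, and miR-545-3p 5 to 15.

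Across the 12 libraries the members did not form one pattern. Correlations are of log2 CPM, share the libraries and their scaling, and are given as a description. miR-185-5p went most closely with miR-25-3p (Pearson r = 0.944), miR-221-3p (0.916) and the member miR-1307-5p (0.902). miR-744-5p was nearest to let-7e-5p (r = 0.862), miR-18a-3p (0.856) and let-7i-5p (0.853). For miR-1307-5p the nearest were miR-27b-3p (r = 0.949), miR-92a-3p (0.933) and miR-25-3p (0.931), and for miR-1307-3p miR-92b-3p (r = 0.949), miR-877-5p (0.921) and miR-27b-3p (0.920). The strands of miR-1307 had an r of 0.871 with each other, and those of miR-101 an r of 0.01.

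miR-101-3p was nearest to miR-19a-3p (r = 0.880), miR-2110 (0.841) and miR-365a-3p (0.835), and miR-1180-3p to miR-877-5p (r = 0.955), miR-301b-3p (0.924) and miR-769-3p (0.902). miR-421, on the TMM scale low in E5 and A5 more than in R821E, stood apart from the other members, with r between -0.35 and 0.32, and was nearest to miR-491-5p (0.821), miR-425-5p (0.759) and miR-182-5p (0.727). miR-101-5p ran against 6 of the 7 other members, with r down to -0.64 for miR-1307-3p, and was nearest to miR-135b-5p (0.905), miR-224-5p (0.853) and miR-7641 (0.827).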

How the data were processed

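AQ-seq libraries of HCT116 cells were analysed as deposited: the authors' files give 1 raw count for each miRNA entry, a whole number that was not normalised. Per the submitters' processing notes, the tools were cutadapt, BWA and bedtools, with hg38 and mm10 as builds. Versions, what each build was for and the counting of reads that match several miRNAs were not given in the sources used here. Spike-in entries (30) stayed out of library sizes and tests.

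Counts were fitted with edgeR 4.0.16 under R 4.3.3 (robust quasi-likelihood, TMM, filterByExpr) over 12 libraries in 6 groups, with 6 residual degrees of freedom and Benjamini-Hochberg adjustment over 374 entries holding 99.6% of miRNA counts. Strand ratios, log2 of (5p + 0.5)/(3p + 0.5), were tested with limma 3.58.1 over 69 hairpins, each averaging 20 counts or more per strand. The scripts were tested on simulated data. With 2 libraries against 2, an exact two-sided permutation test cannot go below p = 0.333, so none is given. Replicates differed beyond sampling noise (chi-square per degree of freedom 3.83 to 25.6).

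Members, comparisons and related entries were chosen with earlier results of these data known. The text names all members, detected related entries, and for each member the 3 entries of highest Pearson correlation of log2 CPM (prior count 2). Alternatives were other scalings, filters, DESeq2 1.42.0, limma-voom, a block for the replicate number, a fit of the compared libraries alone and each library left out. Hairpins and mature sequences are from RefSeq.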

Additional observations from a re-analysis of the deposited data

How the results depend on the processing

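Over 96 results, 1745 of 1972 alternative values kept their direction and side of the threshold, or moved by less than the spread. A count of calls was taken as kept when it stayed within a fixed factor of the reported count, which is a loose rule. The median log2 fold change of the members against WT became -1.92 in R821E with total counts, and by spike-ins -1.50 in E5, -1.02 in A5, -0.95 with ΔPAZ helix, -2.67 in R821E and -0.65 in R821A. With a mean of at least 100 CPM it was -0.44 in E5 and -1.59 in R821E. Leaving out 1 library gave -0.91 to -0.69 in E5, -0.64 to -0.47 in A5, -0.55 to -0.43 with ΔPAZ helix, -1.38 to -1.26 in R821E and -0.74 to -0.15 in R821A. Over the settings other than leaving out 1 library, the count of called members ran from 4 to 6 between R821E and R821A and was 0 between E5 and A5. It ran from 3 to 4 between R821E and E5, and from 4 to 7 among the 5 mutants. Calls over all entries ran from 118 to 184, 0 to 0, 87 to 140 and 85 to 149 in the same order. Related pairs called ran from 2 to 6 over these settings, and strand ratios called from 0 to 1.

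By spike-ins 6 related pairs were called, all lower: 2 in E5, where 27.3% of all entries were called lower, 1 with ΔPAZ helix (13.1%), 2 in R821E (60.4%) and 1 in R821A (4.28%). One strand ratio was called with a mean of at least 100 counts (miR-1307, R821E minus E5, -0.44, limma adjusted p = 0.0309), and 1 with a pseudocount of 5 (miR-101, R821E minus E5, 0.93, limma adjusted p = 0.0493). With total counts miR-101-5p turned to -0.11 in R821E minus WT and -0.071 in R821E minus R821A. By spike-ins it turned to -0.82 and -0.47, miR-1307-3p in R821A minus WT to -0.15, miR-1307-5p in E5 minus A5 to -0.094, and miR-374a-5p to -0.55 in R821E minus WT, -0.20 in R821E minus R821A and -0.095 in R821E minus E5. The miR-101 ratio in E5 minus A5 turned to -0.016 with a pseudocount of 5.

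Leaving out 1 library at a time gave both signs for these values. miR-101-3p ran from -0.24 to 0.0062 in E5 minus WT. In E5 minus A5, miR-1307-5p ran from -0.069 to 0.15, miR-421 from -1.04 to 0.48 and the miR-101 ratio from -0.22 to 0.22. In R821E minus E5, miR-744-5p ran from -0.51 to 0.42 and miR-101-5p from -0.39 to 0.15. In R821E minus R821A, miR-421 ran from -0.66 to 0.65 and the miR-1307 ratio from -0.055 to 0.050. Both signs were also given against WT by miR-1307-3p, miR-101-5p and miR-1180-3p in A5, miR-1307-3p and miR-101-5p with ΔPAZ helix, miR-421 in R821E, and miR-101-5p, miR-421 and miR-1180-3p in R821A. These sign changes concern differences that were not called or not tested, except those of miR-374a-5p, and their cause was not tested.

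Replicate numbers did not pair the libraries: deviations correlated at -0.499 to 0.374 over 15 pairs of groups, with 1 over 0.1. With the number as a block, 4 members were called between R821E and R821A, 0 between E5 and A5, 4 between R821E and E5, and 4 among the 5 mutants, where the fit without it called 6. At these depths miR-421 and miR-1180-3p hold few counts per library, which limits the precision of their values.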
